A study of Mus musculus with 2 samples.

Results

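The Mir15, Mir16, Mir195 and Mir497 genes form 3 genomic clusters, and their microRNA counts were followed here in the newborn mouse heart. The members were chosen by name: Mir15a, Mir15b, Mir16-1, Mir16-2 and Mir195a by the counts on their own strand, and Mir497 by the counts on the opposite strand of the row Mir497b, which lies across it. They are 6 of 1973 genes in the tables. Each of the 6 passed a minimum of 10 counts in each heart, as did 359 genes in all. The libraries were made from total RNA of 2 whole hearts of pups of the strain B6NCrl at postnatal day 0, with a size range under 30 nt. Replicate 1 is the heart of pup 1 and replicate 2 that of pup 3, which makes them separate animals, and the labels give no second condition, genotype or treatment. Sex was not collected, per the labels. With 1 library per heart, a difference between animals cannot be told apart from one between library preparations.

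MicroRNAs are cut from hairpin precursors, and each precursor can give a mature strand from its 5′ arm (5p) and from its 3′ arm (3p). Bases 2 to 8 of a mature microRNA, the seed, do most of the pairing with target messenger RNAs, so microRNAs with the same seed share many targets. The miR-15 family is known for repressing cell cycle genes such as cyclins and Chek1, and in the mouse heart miR-195 is known for its rise after birth, when cardiomyocytes leave the cell cycle.

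The 5p sequences of the 6 genes are printed first, because the seed they share is what makes them a family and the bases after it are what the counts can tell apart. They are RNA, 5′ to 3′, from RefSeq on build GRCm38.p6, with the seed in capitals:
miR-15a-5p (Mir15a): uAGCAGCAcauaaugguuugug
miR-15b-5p (Mir15b): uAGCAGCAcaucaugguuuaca
miR-16-5p (Mir16-1 and Mir16-2): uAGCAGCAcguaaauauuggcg
miR-195a-5p (Mir195a): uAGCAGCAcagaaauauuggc
miR-497a-5p (Mir497): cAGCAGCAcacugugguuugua
All 6 genes matched an entry, and all carry the seed AGCAGCA on the 5p arm. Of 1738 mature entries in the whole reference, 11 have this seed.

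After the seed, the 5p sequences differ by degrees. Compared base by base from the first position, miR-16-5p and miR-195a-5p were identical at 19 of 21 bases. miR-15a-5p matched miR-15b-5p at 18 of 22 bases and miR-497a-5p at 17 of 22, and miR-15b-5p matched miR-497a-5p at 16 of 22. miR-15a-5p and miR-16-5p, from neighbouring precursors, also matched at 16 of 22 bases, so these counts do not part the sequences cleanly into sets. miR-15b-5p and miR-16-5p, the neighbours in Smc4, matched at 14 of 22 bases, and miR-195a-5p and miR-497a-5p, the neighbours on chromosome 11, at 12 of 21. miR-195a-5p matched miR-15a-5p at 15 of 21 bases and miR-15b-5p at 14 of 21. The lowest match was that of miR-16-5p and miR-497a-5p, at 11 of 22 bases.

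The 3p sequences do not share a seed, and they are shown because they can tell genes with the same 5p sequence apart:
miR-15a-3p (Mir15a): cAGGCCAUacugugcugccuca
miR-15b-3p (Mir15b): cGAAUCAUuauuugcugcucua
miR-16-1-3p (Mir16-1): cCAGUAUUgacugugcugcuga
miR-16-2-3p (Mir16-2): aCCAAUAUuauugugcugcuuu
miR-195a-3p (Mir195a): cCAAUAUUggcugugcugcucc
miR-497a-3p (Mir497): cAAACCACacugugguguuag
Each of the 6 was found in 1 annotated microRNA precursor of GENCODE M21. The files count reads per gene, so the 5p and 3p strands of a precursor cannot be told apart in the values below.

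miR-16-5p is the exception in where its reads can be placed. It was found in the precursors of both Mir16-1 and Mir16-2, and the stretch that these share is 23 nt long, the 22 bases of the mature sequence plus 1 base after it. The hairpins show how little sequence beyond the mature strand the 2 genes share, with the shared stretch in capitals:
Mir16-1: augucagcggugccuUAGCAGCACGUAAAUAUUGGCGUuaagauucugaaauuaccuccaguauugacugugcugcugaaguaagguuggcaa
Mir16-2: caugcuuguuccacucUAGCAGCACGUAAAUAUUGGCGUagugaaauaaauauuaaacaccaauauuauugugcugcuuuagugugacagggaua
The deposited tables list reads that match several places apart from the genes, and these were 35.9% (replicate 1) and 34.6% (replicate 2) of the reads. A read that lies wholly within the shared stretch matches both genes, so the counts of Mir16-1 and Mir16-2 leave such reads out and are uncertain as levels of miR-16. Of the windows of 20 nt along each precursor, 4 of 74 in Mir16-1 and 4 of 76 in Mir16-2 occurred in another microRNA precursor. For Mir15a, Mir15b, Mir195a and Mir497 the number was 0. Precursors that overlap a gene, such as Mir497b across Mir497, were left out of this search, as were places outside microRNA precursors. The longest stretch of Mir195a found elsewhere was 16 nt, in Mir195b.

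**Figure D1:**
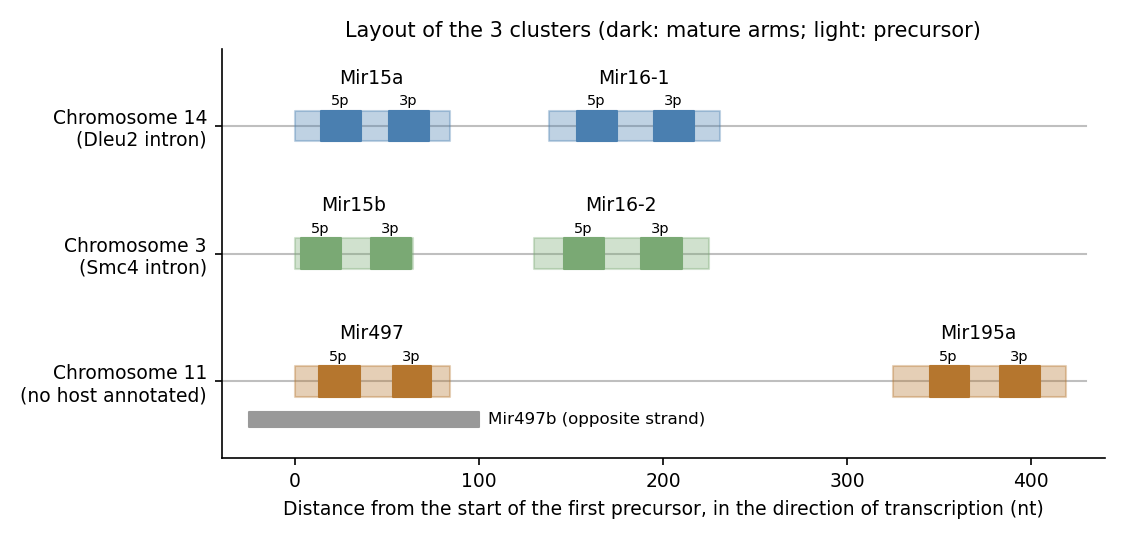
Layout of the 3 clusters. The horizontal axis is the distance in nt from the start of the first precursor in the direction of transcription, light boxes are precursors, dark boxes are the mature 5p and 3p strands, and the grey box is Mir497b on the opposite strand. The gap between the precursors is 54 nt for Mir15a and Mir16-1, 66 nt for Mir15b and Mir16-2, and 241 nt for Mir497 and Mir195a.

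The 3 clusters lie on different chromosomes of build mm10. Mir15a (ENSMUSG00000093007.1, chromosome 14, 61632027 to 61632110, minus strand) and Mir16-1 (ENSMUSG00000092995.1, 61631880 to 61631972) lie in intron 4 of transcript Dleu2-208 of the long non-coding RNA gene Dleu2. Mir16-1 also overlaps 13 nt of the exon of another Dleu2 transcript, Dleu2-215. Mir15b (ENSMUSG00000065580, chromosome 3, 69009772 to 69009835, plus strand) and Mir16-2 (ENSMUSG00000065606.1, 69009902 to 69009996) lie in intron 5 of transcript Smc4-201, and Smc4 encodes a subunit of condensin, the complex that compacts chromosomes in mitosis. Mir497 (ENSMUSG00000105220.1, chromosome 11, 70234717 to 70234800, plus strand) and Mir195a (ENSMUSG00000065411.2, 70235042 to 70235135) lie in no annotated host gene on their strand in GENCODE M21, and the nearest protein-coding gene, 0610010K14Rik on the minus strand, lies 70 nt beyond Mir195a. In the direction of transcription the order is Mir15a before Mir16-1, Mir15b before Mir16-2, and Mir497 before Mir195a, as the map of the clusters shows.

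Mir497 has no row of its own in the deposited tables, which hold Mir497b (ENSMUSG00000070109.2, 70234692 to 70234816, minus strand) in its place. The sequences show why the strand matters. The hairpin of Mir497 is printed with its 5p and 3p strands in capitals, and that of Mir497b with the 84 bases in capitals that are the reverse complement of the whole Mir497 hairpin:
Mir497: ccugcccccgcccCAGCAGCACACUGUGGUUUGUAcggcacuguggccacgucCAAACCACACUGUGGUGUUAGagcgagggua
Mir497b: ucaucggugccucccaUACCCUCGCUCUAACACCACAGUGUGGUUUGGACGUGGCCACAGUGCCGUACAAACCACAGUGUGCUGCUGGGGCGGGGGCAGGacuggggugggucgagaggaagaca
The row Mir497b had 1 count on its own strand and 5436 on the opposite strand in replicate 1, and 0 and 5049 in replicate 2. The share on the opposite strand was therefore 99.98% in replicate 1 and 100% in replicate 2. Over all genes the opposite strand held 7.15% and 7.22% of the gene counts, and 12 rows had 100 or more opposite-strand counts in each heart. Mir195a, the neighbour of Mir497, had 1 count on its opposite strand in each heart, and the other 4 members had 0. The mature sequence annotated for Mir497b, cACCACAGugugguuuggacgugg, has another seed than the family.

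The labelled tissue was checked against marker microRNAs. The cardiac muscle list (Mir208a, Mir208b and Mir499, which lie in myosin heavy chain genes) held 12.2% of the counts in replicate 1 and 12.5% in replicate 2. The endothelial list (Mir126a and Mir139) held 14.7% and 12.5%, and the smooth muscle list (Mir143 and Mir145a) 9.41% and 8.77%. The erythroid, leukocyte, skeletal muscle, epithelial, hepatocyte and neuronal lists each held at most 0.138% in both hearts. Of the 5 neuronal genes in the tables, 0 reached 10 counts in each heart. Gene counts leave out reads that also fit another gene, so genes with a shared mature sequence can be near 0 in any tissue. A low share of a list that holds such genes, the neuronal list among them, cannot show that a cell type was absent. In whole hearts, fewer cells of a type and less RNA per cell cannot be told apart.

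By the deposited counts all 6 genes were moderately abundant, and Mir15a was the highest. Reads that fit both Mir16 genes are left out of these levels. Levels are given in CPM, counts per 1000000 counts on the strand of the genes, with totals of 6373797 counts in replicate 1 and 7630427 in replicate 2, and intervals are exact Clopper-Pearson 95% intervals that cover counting error only. At this depth 3 counts, the limit that a count of 0 allows, are 0.471 CPM in replicate 1 and 0.393 CPM in replicate 2. Mir15a had 19249 counts, or 3020 CPM (2978 to 3063), in replicate 1 and 22827 counts, or 2992 CPM (2953 to 3031), in replicate 2. Its mean was 3006 CPM ± 20.1 (SD, n = 2), and the 2 hearts lay within each other's intervals. Mir16-1, its neighbour, had 10118 counts, or 1587 CPM (1557 to 1619), in replicate 1 and 13784 counts, or 1806 CPM (1776 to 1837), in replicate 2, a mean of 1697 CPM ± 155. The counted level of Mir16-1 was thus below that of Mir15a in both hearts and higher in replicate 2.

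The genes in Smc4 were lower. Mir15b had 4584 counts, or 719 CPM (699 to 740), in replicate 1 and 5507 counts, or 722 CPM (703 to 741), in replicate 2, a mean of 720.5 CPM ± 1.78. Like Mir15a, it was at nearly the same level in the 2 hearts. Mir16-2 had the lowest counted level of the 6, without the reads that fit both Mir16 genes. It had 2448 counts, or 384 CPM (369 to 400), in replicate 1 and 3851 counts, or 505 CPM (489 to 521), in replicate 2. Its mean was 444 CPM ± 85.3. The higher heart was again replicate 2, as for Mir16-1.

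On chromosome 11 both genes were higher in replicate 1. Mir195a, the member best known from the postnatal heart, had 7957 counts, or 1248 CPM (1221 to 1276), in replicate 1 and 7348 counts, or 963 CPM (941 to 985), in replicate 2, a mean of 1106 CPM ± 202. Mir497 had 5436 counts, or 853 CPM (830.4 to 876), in replicate 1 and 5049 counts, or 662 CPM (644 to 680.2), in replicate 2, a mean of 757 CPM ± 135. For neither gene did the intervals of the 2 hearts overlap.

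**Figure D2:**
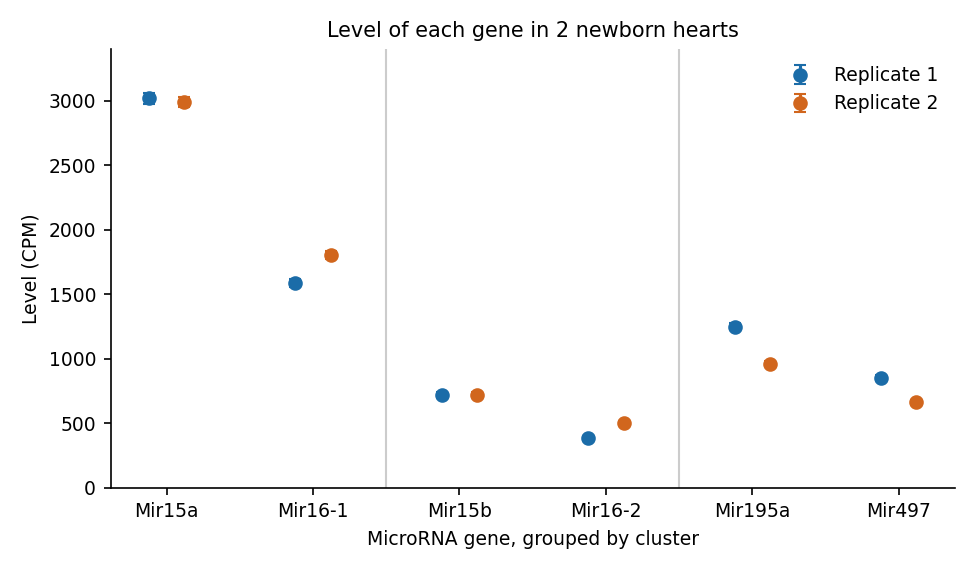
Level of each gene in the 2 hearts. The vertical axis is CPM on a linear scale from 0, each point is 1 heart, and the bars, mostly hidden by the points, are exact Clopper-Pearson 95% intervals. Mir15a (3020 and 2992 CPM) lies above all others, Mir16-1 and Mir16-2 are higher in replicate 2, and Mir195a and Mir497 are higher in replicate 1.

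By mean CPM the order was Mir15a, Mir16-1, Mir195a, Mir497, Mir15b and Mir16-2, at ranks 34, 55, 69, 84, 85 and 101 of the 359 genes with 10 or more counts in both hearts. Mir497 and Mir15b are neighbours in this order that did not keep it in both hearts. Mir497 was above Mir15b in replicate 1 (853 against 719 CPM) and below it in replicate 2 (662 against 722 CPM). The other neighbours kept their order in both hearts, among them Mir16-1 above Mir195a. The counts of Mir16-1 and Mir16-2 leave out reads that fit both genes, so their places in this order are not settled. By the rule of the nearest pair of values in the 2 hearts, on a scale of log2(CPM + 1), the genes most like Mir15a were Mir542 (2990 and 3041 CPM) and Mir411 (3192 and 2959). Those most like Mir15b were Mir27a (725 and 633 CPM) and Mir320 (705 and 856), and those most like Mir195a were Mir381 (1148 and 1031) and Mir210 (1106 and 1003). This likeness rests on 2 hearts and on level alone.

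The cluster in Dleu2 gave most of the counts of the 3 clusters. Its 2 genes summed to 4607 CPM (4555 to 4660) in replicate 1 and 4798 CPM (4749 to 4847) in replicate 2, which was 59.0% and 62.7% of the 6 genes together. The Mir195a/Mir497 cluster summed to 2101 CPM (2066 to 2137) and 1625 CPM (1596 to 1654), or 26.9% and 21.2%. The Mir15b/Mir16-2 cluster summed to 1103 CPM (1078 to 1129) and 1226 CPM (1202 to 1251), or 14.1% and 16.0%. The order of the clusters by these counts was the same in both hearts. In all, the counts of the 6 genes came to 0.781% of the sense-strand total in replicate 1 and 0.765% in replicate 2. The counts of Mir497 are from the opposite strand of Mir497b and are not themselves in that total. Counts of Mir16-1 and Mir16-2 leave out shared reads, so the sums of their clusters may be too low, by an amount not measured. Without these 2 genes, Mir15a alone was at 3006 CPM and Mir15b alone at 720.5 CPM, beside 1863 CPM for Mir195a and Mir497 together. That comparison sets 1 gene against 2. Which of the Smc4 and chromosome 11 clusters gave more RNA is not settled by these counts.

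Ratios of genes within a heart need no library total, and 10 were compared: 3 within clusters, 4 between related genes of different clusters and 3 between cluster sums. All 20 tests in 2 hearts differed from 1 to 1 by the exact binomial test with Benjamini-Hochberg adjustment, the highest adjusted p being 2.01e-59. This test covers counting error only, and differences in how well sequences are captured in the library are not removed. Fisher's exact test then asked whether each ratio differed between the 2 hearts, adjusted over the 10 ratios.

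Within clusters, the deposited counts of the Mir15 genes exceeded those of the Mir16 genes beside them. The Mir16 counts leave out reads within the 23 nt that hold all of miR-16-5p, and the reads matching several places, of all kinds, were 4974412 in replicate 1 and 5980508 in replicate 2. Which of the neighbours gave more RNA is therefore not settled by these 2 ratios. The ratio of Mir15a to Mir16-1 was 1.90 (1.86 to 1.95) in replicate 1 and 1.66 (1.62 to 1.69) in replicate 2, and differed between the hearts (Fisher's exact test, adjusted p = 4.06e-17). The ratio of Mir15b to Mir16-2 was 1.87 (1.78 to 1.97) in replicate 1 and 1.43 (1.37 to 1.49) in replicate 2, and also differed (Fisher's exact test, adjusted p = 2.41e-16). In replicate 1 these ratios lay within each other's intervals, and in replicate 2 they did not overlap. Mir195a exceeded Mir497 by 1.46-fold (1.41 to 1.52) in replicate 1 and 1.46-fold (1.40 to 1.51) in replicate 2. That ratio did not pass the test between hearts (Fisher's exact test, adjusted p = 0.829), and the intervals place it between 1.40 and 1.52 in each heart.

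Across clusters, the counts of the gene pair in Dleu2 exceeded those of its counterparts in Smc4 by 3.58-fold to 4.20-fold. Mir15a exceeded Mir15b by 4.20-fold (4.07 to 4.34) in replicate 1 and 4.15-fold (4.02 to 4.27) in replicate 2, which did not pass the test between hearts (Fisher's exact test, adjusted p = 0.625). Mir16-1 exceeded Mir16-2 by 4.13-fold (3.95 to 4.32) in replicate 1 and 3.58-fold (3.45 to 3.71) in replicate 2 (Fisher's exact test, adjusted p = 9.47e-07). Summed by cluster, the Dleu2 genes exceeded the Smc4 genes by 4.18-fold and 3.91-fold (Fisher's exact test, adjusted p = 0.00027). In replicate 1 the ratios for the Mir15 genes, the Mir16 genes and the sums lay within each other's intervals. In replicate 2 the intervals of the 3 ratios did not overlap, and the ratio of the Mir16 genes was the lowest.

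All 4 ratios to the chromosome 11 genes differed between the hearts, by factors of 1.28 to 1.44. The ratio of Mir15b to Mir16-2, which does not involve those genes, moved by a factor of 1.31. Mir15a exceeded Mir195a by 2.42-fold (2.36 to 2.48) in replicate 1 and 3.11-fold (3.03 to 3.19) in replicate 2 (Fisher's exact test, adjusted p = 1.95e-39). Mir15b was at 0.576 (0.555 to 0.597) of Mir195a in replicate 1 and 0.749 (0.724 to 0.776) in replicate 2 (Fisher's exact test, adjusted p = 3.37e-24). The sum of the Dleu2 cluster was 2.19 and 2.95 times that of Mir195a and Mir497 (Fisher's exact test, adjusted p = 4.80e-90). The sum of Mir195a and Mir497 was 1.90 and 1.32 times that of the Smc4 cluster (Fisher's exact test, adjusted p = 1.78e-72). This ratio moved furthest, by a factor of 1.44. The sums of the Dleu2 and Smc4 clusters leave out reads that fit both Mir16 genes. The ratio of the Dleu2 sum may therefore be too low and that over the Smc4 sum too high, by amounts that were not measured. In all, 8 of the 10 ratios differed between the hearts beyond counting error. The exceptions were Mir195a over Mir497 and Mir15a over Mir15b. The 10 ratios reuse the counts of the same genes and are not independent. Ratios of other genes were not tested, so there is no background share for 8 of 10. Of single genes at a mean of 100 CPM or more, 66.9% differed between the hearts by an exact binomial test of counting error. A spread between animals was not added to the test of the ratios.

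**Figure D3:**
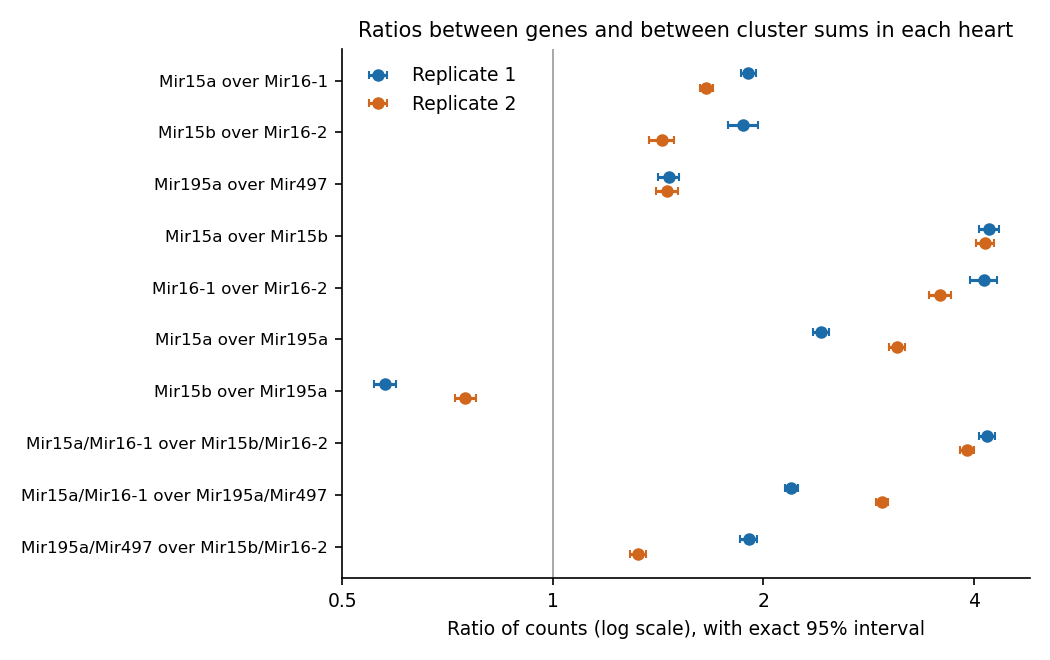
The 10 ratios in each heart. The horizontal axis is the ratio of counts on a log scale, points are hearts and bars are exact 95% intervals. The points of the 2 hearts overlap for Mir195a over Mir497 (1.46 and 1.46) and for Mir15a over Mir15b (4.20 and 4.15), and lie apart for the other 8 ratios.

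Set against all genes, 4 of the 6 members differed between the hearts when their counts were set against the library totals in an exact binomial test, with Benjamini-Hochberg adjustment over 436 genes and a threshold of 0.05. Of all genes tested 31.2% differed, and of the 154 at a mean of 100 CPM or more 66.9% did, so a share of 4 in 6 is near what genes of this depth showed. Mir16-2 was 1.31-fold higher in replicate 2, at a log2 ratio of 0.39 (exact 95% interval 0.32 to 0.47, exact binomial adjusted p = 1.81e-25). Mir16-1 was 1.14-fold higher in replicate 2, at 0.19 (0.15 to 0.22, exact binomial adjusted p = 4.10e-22). In the same test 19.0% of all genes were higher in replicate 2.

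Mir195a was 1.296-fold higher in replicate 1, at a log2 ratio of -0.37 (-0.42 to -0.33, exact binomial adjusted p = 1.16e-56). Mir497 was 1.289-fold higher in replicate 1, at -0.37 (-0.42 to -0.31, exact binomial adjusted p = 2.38e-37). In the same test 12.2% of all genes were higher in replicate 1. Mir15a, at -0.01 (-0.04 to 0.01, exact binomial adjusted p = 0.579), and Mir15b, at 0.01 (-0.05 to 0.06, exact binomial adjusted p = 0.962), did not pass. A p above the threshold does not show that the hearts were alike, but these intervals reached no further than -0.05 and 0.06.

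This test compares 2 libraries and counts sampling noise only. With a spread between animals set at a biological coefficient of variation of 0.1, 0 of the 6 genes passed by the edgeR exact test (adjusted p of 0.744 for Mir16-2, Mir195a and Mir497, and 1 for the others), 0 of the 6 were at an unadjusted p under 0.05, and 1 of all 436 genes passed. Other measures moved between the same hearts. The endothelial list held 14.7% of the counts in replicate 1 and 12.5% in replicate 2. Its 2 genes moved in opposite directions: Mir126a had 144115 CPM in replicate 1 and 122186 CPM in replicate 2, and Mir139 had 2741 and 2989 CPM. The share of unmapped reads was 12.6% and 15.5%, and the share of reads matching several places 35.9% and 34.6%. The part of these measures in the differences of the 4 genes was not tested.

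**Figure D4:**
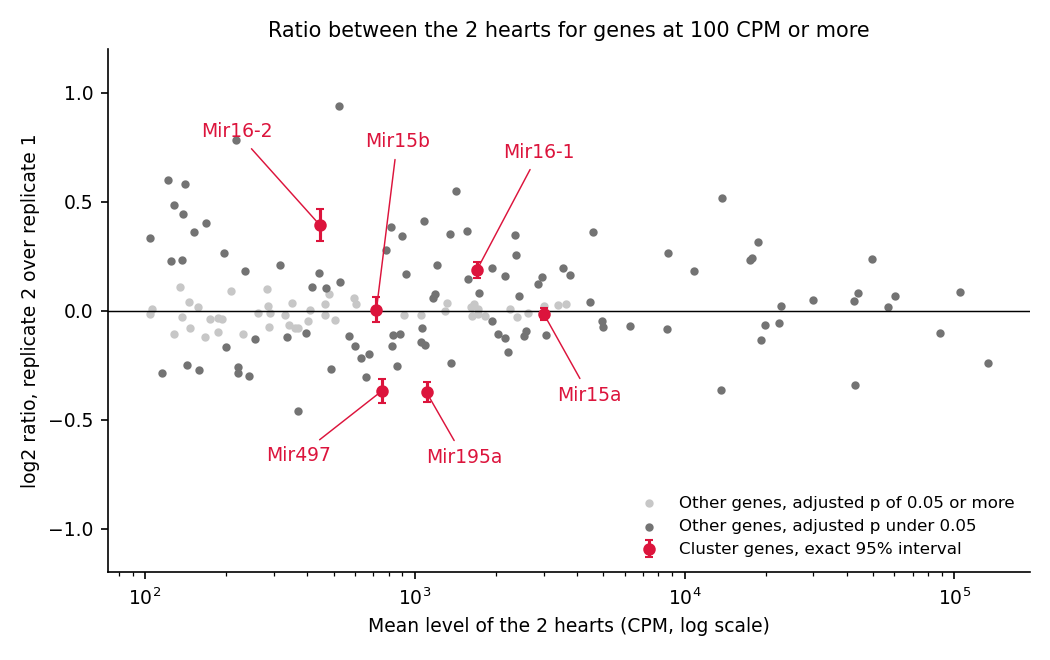
Ratio between the hearts for the 154 genes at a mean of 100 CPM or more. The horizontal axis is the mean CPM on a log scale and the vertical axis the log2 ratio of replicate 2 over replicate 1; red points are the 6 cluster genes with exact 95% intervals, and grey points are other genes, darker where the adjusted p was under 0.05. Mir195a and Mir497 lie at -0.37, Mir16-1 and Mir16-2 at 0.19 and 0.39, and Mir15a and Mir15b at -0.01 and 0.01.

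The genes that share the seed were listed as relatives. Of 11 genes with the seed AGCAGCA in the reference, 7 had 10 or more counts in both hearts: the 6 members and Mir322. Mir322, an X-linked gene whose 5p sequence matches miR-15a-5p at 15 of 22 bases, had 56350 CPM in replicate 1 and 57017 CPM in replicate 2. It was thus 7.21-fold and 7.45-fold above the 6 members together, which held 12.2% and 11.8% of the counts of the seed family. The counts of the members leave out reads within the stretch shared by Mir16-1 and Mir16-2. Of the windows of 20 nt along Mir322, 0 of 76 occurred in another microRNA precursor, and places outside such precursors were not searched. The folds may therefore be too high and the shares of the members too low, by an amount that was not measured. Mir503, the neighbour of Mir322, has the near seed AGCAGCG and had 1677 and 1775 CPM. That is close to the counted level of Mir16-1, at 1587 and 1806 CPM, which leaves out the shared reads. Mir195b, Mir6342, Mir6353 and Mir6419, which share the seed, and Mir1907, which was listed with them, had 0 counts in both hearts, which allows up to 0.471 CPM in replicate 1 and 0.393 CPM in replicate 2. Of the relatives, Mir322 and Mir503 passed the test between hearts, both higher in replicate 2, at log2 ratios of 0.02 (exact binomial adjusted p = 9.65e-07) and 0.08 (exact binomial adjusted p = 5.81e-05).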

How the data were processed

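Small RNA libraries of 2 hearts were counted by the authors as reads per gene. Per the file headers, the genome build was mm10, the gene annotation was GENCODE M4, and the authors derived each deposited table from a single alignment file. The aligner, counter and trimming: not given in the sources used here. The deposited counts are whole numbers with no normalization. The tables have no header. The leftmost column of counts equals the sum of the others and was taken as both strands, the middle column as the strand of the gene and the rightmost as the opposite strand. That reading comes from the values. Rows for reads outside genes were set aside: unmapped reads were 12.6% and 15.5% of all reads, reads matching several places 35.9% and 34.6%, reads in no gene 1.93% and 2.28%, and ambiguous reads 0. Names and positions came from GENCODE M21 (1894 of 1973 identifiers matched) and mature sequences from RefSeq. Mir15b has identifier version 1 in the tables and 2 in M21.

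CPM used the sense-strand total. Genes with 10 or more counts together entered the test between hearts. Log2 ratios in that test used 0.5 added counts. The test was tested on simulated data for 431 genes, with sampling noise only. Changes were given only to genes with 100 or more counts together, so the rates for changed genes do not cover lower counts. Of genes given a 1.25-fold change it called 76%, of those given 1.5-fold 84%, and of those given 2-fold or 4-fold 100%. Of genes left unchanged it called 1.30%. Genes named were the 6 members, the seed relatives and, for the highest gene of each cluster, the 2 nearest genes in level. The members, lists, pairs and tests were chosen with earlier results of these data known. Alternatives were other library totals, TMM and DESeq2 size factors, counts of both strands, other minimums, added counts, a preset spread in edgeR and each heart alone. Tests ran in Python 3.11.15 with SciPy 1.17.1, and pandas 2.3.3, NumPy 2.4.6 and matplotlib 3.10.9 served for tables and plots. Scaling and the preset spread used DESeq2 1.42.0 and edgeR 4.0.16 in R 4.3.3.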

Additional observations from a re-analysis of the deposited data

How the results depend on the processing

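No paired analysis was possible because the labels give 1 group of hearts. All 50 alternatives of the ratios within a heart and all 20 of the ratios between hearts kept their direction. The exact binomial test was run in 30 of the 50 (both strands together, and each heart alone) and all 30 passed, while added counts give a value with no test. With both strands together, the 8 ratios that differed between hearts passed Fisher's exact test again and the other two did not. For the same 8 the exact intervals of the 2 hearts were apart, the reading set beside 0.5 added counts in place of a test. With each heart alone the mean log2 ratios ranged from 0.73 to 0.93 for Mir15a over Mir16-1 and from 0.52 to 0.91 for Mir15b over Mir16-2. With the total of both strands as the scale, the Mir15a/Mir16-1 cluster was at 4365 CPM instead of 4703. Without Mir16-1 and Mir16-2 that cluster was at 3006 CPM, and the Mir15b/Mir16-2 cluster at 720.5 CPM instead of 1165. By the edgeR exact test, 0 members differed between hearts with the biological coefficient of variation preset to 0.1 and 0 with 0.2 (0 of the 6 at an unadjusted p under 0.05 in both, and 29 and 4 of all genes), against 4 without it. Over the 7 other alternatives of that test the number was 4 or 5, and the adjusted p of Mir16-1 ranged from 2.59e-22 to 1.43e-14, of Mir16-2 from 1.14e-25 to 4.94e-21, of Mir195a from 4.83e-68 to 1.90e-56 and of Mir497 from 5.24e-45 to 3.91e-37 (exact binomial tests). The fifth was Mir15a without Mir126a, the most abundant gene, in the total, at a log2 ratio of -0.05 (exact binomial adjusted p = 0.00163), and in the same setting Mir15b was at -0.03, below 0 instead of above it, and did not pass. The number of reads shared by Mir16-1 and Mir16-2 cannot be read from these tables, so their full levels were not measured here at any depth.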

Other observations

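Summed by name, Mir15a and Mir15b were at 3739 CPM in replicate 1 and 3713 CPM in replicate 2, while Mir16-1 and Mir16-2 were at 1972 and 2311 CPM. Both Mir16 genes were thus higher in replicate 2 and neither Mir15 gene passed the test, although each Mir16 gene lies in 1 host intron with a Mir15 gene. After these values were seen, all genes tested were divided by whether an annotated mature sequence of theirs also occurs in another precursor, as miR-16-5p does. Of 50 genes with such a sequence, 16 passed toward replicate 2 and 4 toward replicate 1, the remaining 30 fell short of the threshold, and the median log2 ratio was 0.14. Of 347 genes without it, 62 passed toward replicate 2, 44 passed toward replicate 1, and 241 fell short, with a median of 0.02. Mir16-1 and Mir16-2, whose values prompted this division, are among the 50, and without them 14 of 48 passed toward replicate 2 and 4 toward replicate 1, with a median of 0.11. The other 39 had no mature entry. Over all 436 genes 83 passed toward replicate 2 and 53 toward replicate 1, with a median of 0.02. The sets were not matched for depth, and the share that passed was 31.2% of all genes but 66.9% of those at a mean of 100 CPM or more. These counts are a description of 2 libraries, and no test of the difference was made. Whether shared sequence has a part in the Mir16 differences was not tested.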
